A study of Homo sapiens with 4 samples.

Results

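The cholesterol and fatty acid synthesis genes described here are 33 genes that sterol regulatory element-binding proteins (SREBPs) are known to control, together with the SREBP genes and their regulators. They were chosen by name, as probes whose single annotated symbol, or an older alias of it, was on the list, and all 33 were found among 18255 named genes. They comprised 18 enzymes of sterol synthesis, 6 regulators and 9 genes of fatty acid and glycerolipid synthesis. Each gene was represented by the brightest of its probes, and 13 genes had a further probe.

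The arrays held RNA of A549, an established human lung adenocarcinoma line. There were 4 groups, all sampled at 48 h, with 1 array each. The siCtrl cells had received a control siRNA and the siPML cells an siRNA against PML, the scaffold protein of PML nuclear bodies. The vector cells were the overexpression control, and the WDR4 cells overexpressed WDR4, a partner of the tRNA methyltransferase METTL1. Each treated array was set against the control of its own kind, siCtrl for siPML and vector for WDR4. The sources used here do not say whether an siRNA was a single sequence or a pool, or how the overexpression was brought about. No group had a replicate, so there is no test and no p-value, every difference below is one between single arrays, and treatment and culture cannot be told apart. Whole cultures were measured, so a change in the share of cells and a change in RNA per cell cannot be told apart either.

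SREBPs are made as precursors anchored in the membrane of the endoplasmic reticulum. When sterols are scarce, the escort protein SCAP carries them to the Golgi, where proteases release the part that enters the nucleus and switches on lipid synthesis genes. When sterols are plentiful, INSIG proteins hold SCAP back. SREBP2, from SREBF2, acts mainly on the sterol branch, and SREBP1, from SREBF1, mainly on the fatty acid branch. The arrays measured RNA only, not the cleavage of either protein.

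Proximal promoters are shown for 6 members because SREBPs bind DNA there together with the CCAAT-binding factor NF-Y. The genes are SREBF2, the 4 members above the level filter that were at least 2-fold higher on siPML than on siCtrl, and DHCR7, which was lower on WDR4. Each line gives the 250 bases before the annotated start on the gene's own strand, from RefSeq on GRCh38.p14. Capitals mark the sterol regulatory element (SRE) letters TCACNCCAC and the NF-Y letters CCAAT, on either strand.
SREBF2, chr22:41832855-41833104, plus strand: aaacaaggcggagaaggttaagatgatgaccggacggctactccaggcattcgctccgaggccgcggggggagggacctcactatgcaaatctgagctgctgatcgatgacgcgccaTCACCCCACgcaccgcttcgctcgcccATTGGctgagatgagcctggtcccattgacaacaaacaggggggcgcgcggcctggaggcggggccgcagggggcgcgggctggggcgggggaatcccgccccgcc
HMGCS1, chr5:43313413-43313662, minus strand: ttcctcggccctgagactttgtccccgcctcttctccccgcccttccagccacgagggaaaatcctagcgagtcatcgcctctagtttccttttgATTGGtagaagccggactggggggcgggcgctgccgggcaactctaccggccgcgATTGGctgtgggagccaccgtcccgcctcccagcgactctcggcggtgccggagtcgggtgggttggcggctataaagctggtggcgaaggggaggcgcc
MSMO1, chr4:165327419-165327668, plus strand: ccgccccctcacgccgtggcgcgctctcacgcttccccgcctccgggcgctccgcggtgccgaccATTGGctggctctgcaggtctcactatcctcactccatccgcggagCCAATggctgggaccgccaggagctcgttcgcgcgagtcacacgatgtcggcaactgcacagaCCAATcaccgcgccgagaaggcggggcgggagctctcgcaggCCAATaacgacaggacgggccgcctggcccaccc
INSIG1, chr7:155297628-155297877, plus strand: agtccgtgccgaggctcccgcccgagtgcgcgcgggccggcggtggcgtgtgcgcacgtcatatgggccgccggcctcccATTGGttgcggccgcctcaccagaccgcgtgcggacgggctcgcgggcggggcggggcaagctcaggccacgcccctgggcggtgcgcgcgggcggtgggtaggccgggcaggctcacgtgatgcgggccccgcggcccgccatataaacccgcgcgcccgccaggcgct
DHCR7, chr11:71448394-71448643, minus strand: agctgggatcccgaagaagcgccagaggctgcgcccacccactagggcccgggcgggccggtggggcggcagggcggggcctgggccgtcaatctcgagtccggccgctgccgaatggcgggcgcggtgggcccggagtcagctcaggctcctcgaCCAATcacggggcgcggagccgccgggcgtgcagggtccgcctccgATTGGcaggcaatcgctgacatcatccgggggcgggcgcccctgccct
ACACA, chr17:37406837-37407086, minus strand: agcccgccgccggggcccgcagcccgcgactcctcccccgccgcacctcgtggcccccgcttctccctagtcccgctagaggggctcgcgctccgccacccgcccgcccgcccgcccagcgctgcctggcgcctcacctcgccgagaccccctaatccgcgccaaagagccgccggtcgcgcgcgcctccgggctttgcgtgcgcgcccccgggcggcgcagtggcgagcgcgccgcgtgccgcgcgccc

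The strict SRE letters stood in the SREBF2 window alone among the 29 members with a promoter in the table, and their first base lay 27 bases before the first base of an NF-Y box. They stood in 0.875% of 27303 promoters of the same length. The letters CCAAT, searched on both strands, were found in 18 of the 29 members and in 33% of all promoters, or in 35.5% of the 7589 promoters of genes above the level filter. By branch, they were found in 12 of 15 sterol synthesis genes, 3 of 6 regulators and 3 of 8 fatty acid genes. MVK and NSDHL held 5 boxes each, MSMO1 held 4, and ACACA held none in this window. The GC-rich Sp1 letters GGGCGG stood in 27 of 29 members, against 68.2% of the promoters of genes above the filter. The E-box CACGTG stood in 3 of 29, against 9.22%. Only the exact letters given were searched, so a site that departs from them was not counted, and members without the strict letters may still hold one. Another start site of a gene was not searched, and ACAT2, FDFT1, SQLE and FASN were not searched.

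The targeted genes were read as a check of the labels. All 4 PML probes were lower with siPML than with siCtrl, and the brightest of them read 853 in siCtrl, 506 in siPML, 3840 with vector and 5015 with WDR4. The brighter WDR4 probe read 2350 in siCtrl, 1271 in siPML, 1140 with vector and 4708 with WDR4. It was 4.13-fold higher on WDR4 than on vector, 1.00 (log2) higher than on siCtrl, and lower on siPML than on siCtrl (-0.89). The dimmer probe read 2226, 1501, 1191 and 890 in the same order, so it was lowest on WDR4. Of 11 measured epithelial markers, 5 lay above the level filter, namely KRT7 (9855 to 16456), KRT19 (7487 to 14534), EPCAM (861 to 1325), CDH1 and MUC1 (214 to 573). CDH1, the epithelial cadherin, read 5311 in siCtrl, 1374 in siPML, 7828 with vector and 6882 with WDR4, and was thus 3.86-fold lower on siPML than on siCtrl (-1.95). KRT8 read at most 71.3, SFTPB 107 to 118, and NKX2-1, SFTPC, SFTPA1 and SFTPD at most 59.8. The summed epithelial list read 24480 in siCtrl, 23820 in siPML, 40240 with vector and 35410 with WDR4. Of 12 measured markers of leukocytes, endothelium and fibroblasts, all but CD68 (403 to 3828) and COL1A1 (411 to 604) lay below the level filter. CD68, which other cells also express in their lysosomes, was the only leukocyte marker above it. The summed leukocyte list read 646 in siCtrl, 461 in siPML, 3268 with vector and 3860 with WDR4, nearly all of it from CD68. The part of these markers in the results was not tested.

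Most of the lipid synthesis genes were higher on siPML than on siCtrl and slightly lower on WDR4 than on vector. Of the 30 members above the level filter, 22 were higher on siPML, against 51.1% of all 9128 genes above that filter. The median log2 difference of the 30 was 0.48, against 0.008 over all genes above the filter. On WDR4, 24 of the 30 were lower than on vector, against 5142 of the 9128 genes. The median there was -0.29, against -0.043. The filter was a mean log2 intensity of 7.81 over the 4 arrays, which is an intensity of 223, and MVK, SREBF2 and STARD4 lay below it. At least 2-fold higher on siPML were 4 of the 30, against 2.3% of all genes above the filter, and 0 were at least 2-fold lower, against 4.27%. Over all 33 members, SREBF2 and STARD4 included, 6 were at least 2-fold higher, against 4.02% of all named genes. At 1.5-fold, 13 of 30 were higher against 10.1%, and 1 was lower against 12.9%. On WDR4, 0 of 30 reached 2-fold in either direction, against 0.362% higher and 0.285% lower, while at 1.5-fold 4 were lower against 3.34% and 0 were higher against 3.09%. At intensities of 300 to 1000, the technical standard error of a log2 difference was 0.11 between the siRNA arrays and 0.08 between the overexpression arrays. It came from the pair of readings behind each deposited value and was assigned to brighter genes without being measured there. It leaves out all variation between cultures and any difference between arrays that both readings of a value share.

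**Figure D1:**
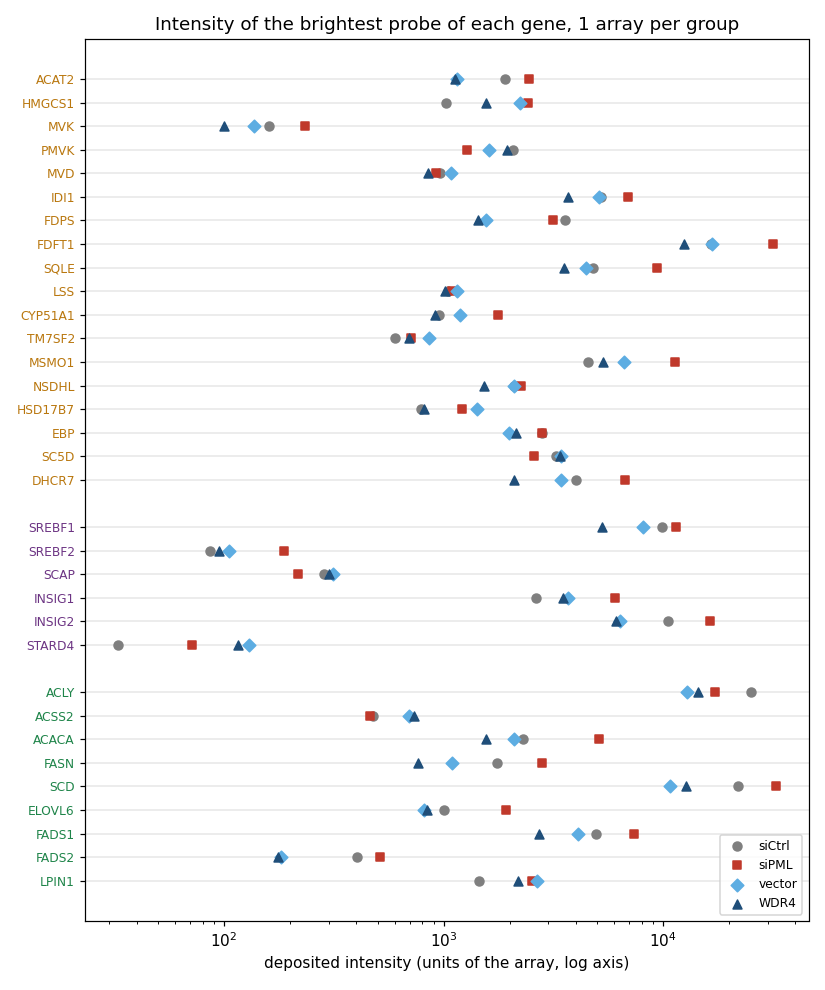
Deposited intensity (log axis) of the brightest probe of each of the 33 genes on the 4 arrays, grouped as sterol synthesis, regulators and fatty acid synthesis. The siPML square stands rightmost for 20 of 33 genes and the WDR4 triangle leftmost for 17; positions are to be compared within a gene only.

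In the sterol branch, HMGCS1 and MSMO1 differed most between siPML and siCtrl. HMGCS1, the synthase that commits acetyl groups to the mevalonate pathway, read 1025 in siCtrl, 2419 in siPML, 2235 with vector and 1557 with WDR4. It was 2.36-fold higher on siPML than on siCtrl (log2 difference 1.24), but the vector array, also a control, lay nearly as high as siPML. MSMO1, an oxygenase that acts in the removal of methyl groups from the sterol ring, read 4570 in siCtrl, 11320 in siPML, 6631 with vector and 5337 with WDR4. It was 2.48-fold higher on siPML than on siCtrl (1.31), and siPML was the highest of the 4 arrays. Its further probe gave 3673, 8680, 5402 and 4000 in the same order, a difference of 1.24.

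FDFT1 and SQLE, which make and oxidize squalene, were higher on siPML than on any other array. FDFT1, the squalene synthase that turns the pathway toward sterols, read 16504 in siCtrl, 31758 in siPML, 16642 with vector and 12506 with WDR4. SQLE, the squalene epoxidase and a rate-limiting step, read 4790 in siCtrl, 9384 in siPML, 4459 with vector and 3527 with WDR4. For both genes the control arrays nearly coincided, siPML stood apart above them by differences of 0.94 and 0.97 from siCtrl, and WDR4 was lowest. CYP51A1, which demethylates lanosterol, read 952 in siCtrl, 1761 in siPML, 1188 with vector and 915 with WDR4, a difference of 0.89 on siPML. LSS, which closes squalene epoxide into lanosterol, did not follow its neighbours. It read 1044, 1093, 1153 and 1014 in the same order, a difference of 0.07 on siPML, within the technical error.

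Enzymes of the mevalonate segment went both ways. MVK, the mevalonate kinase, read 159 in siCtrl, 233 in siPML, 137 with vector and 99.5 with WDR4. PMVK, the next kinase, went the opposite way, with 2062 in siCtrl, 1283 in siPML, 1602 with vector and 1935 with WDR4. It was the only member at least 1.5-fold lower on siPML than on siCtrl (-0.68) and the sterol gene with the largest positive difference on WDR4 (0.27). MVD, the decarboxylase after it, read 964, 920, 1079 and 846 on siCtrl, siPML, vector and WDR4. IDI1, which isomerizes isopentenyl diphosphate, read 5234, 6926, 5096 and 3702 in that order, so that siPML was highest and WDR4 lowest. FDPS, which makes farnesyl diphosphate, separated the siRNA arrays from the overexpression arrays, at 3582 and 3136 against 1561 and 1436. Its dimmer probe differed by 0.13 on siPML where the brighter one differed by -0.19, so the probes did not share a direction. ACAT2, the thiolase at the entry of the pathway, showed the same split between pairs, with 1899 and 2451 on siCtrl and siPML against 1156 and 1129 on vector and WDR4.

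Late sterol enzymes also differed among themselves. DHCR7, the reductase of the last step to cholesterol, read 4001 in siCtrl, 6717 in siPML, 3412 with vector and 2089 with WDR4. It was thus highest on siPML (0.75 over siCtrl) and lowest on WDR4 (-0.71 from vector, 1.63-fold lower). HSD17B7, a ketosteroid reductase of the pathway, read 793 in siCtrl, 1212 in siPML, 1422 with vector and 818 with WDR4. Its difference of -0.80 on WDR4 was the largest of any member in that comparison, but it started from a vector array that was itself 0.84 above siCtrl. The gene has a near-identical copy, HSD17B7P2, that can share probe signal. NSDHL, which works with MSMO1, read 2088, 2246, 2089 and 1522 on siCtrl, siPML, vector and WDR4, so only WDR4 stood apart (-0.46). TM7SF2, a sterol reductase, read 598, 708, 859 and 698, and was highest on vector. EBP, a sterol isomerase, read 2817, 2794, 1989 and 2139, and SC5D, the desaturase, 3265, 2580, 3422 and 3376. EBP hardly differed within either pair, and SC5D was lowest on siPML (-0.34), though its dimmer probe differed by 0.06.

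**Figure D2:**
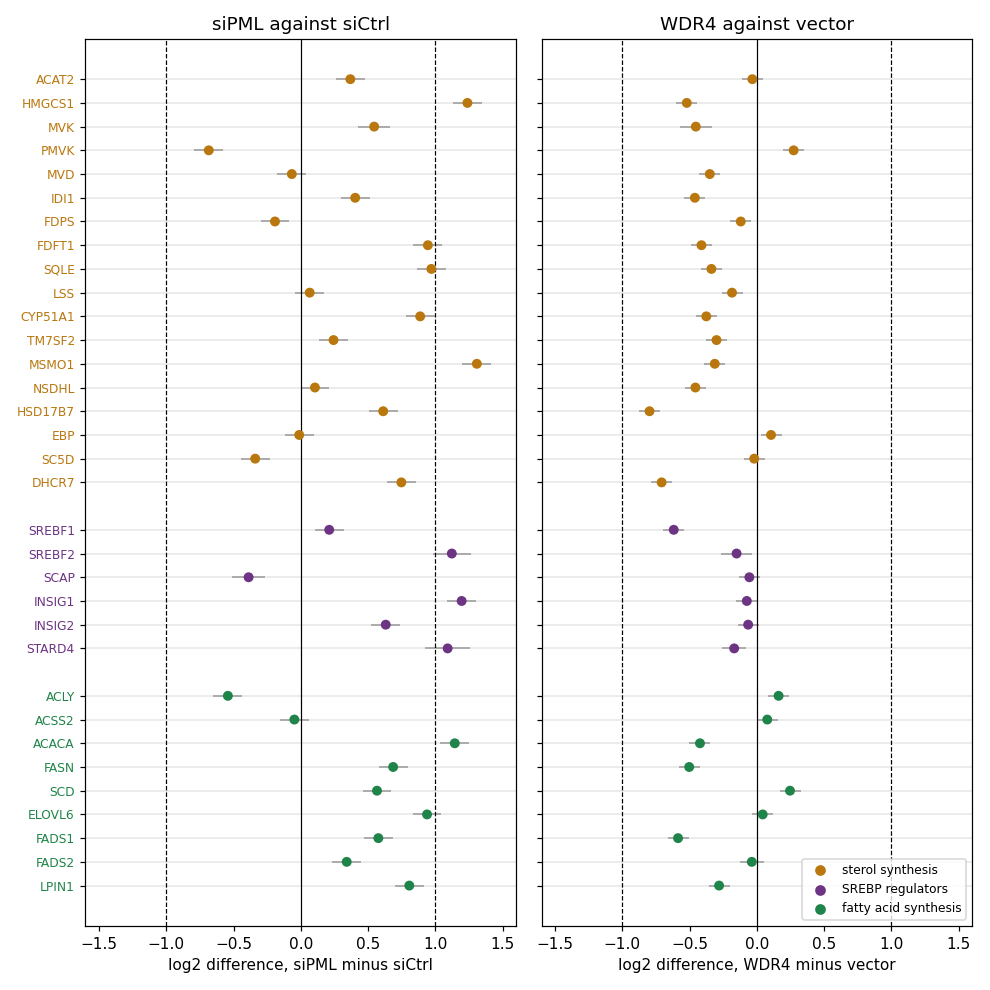
Log2 difference of each gene for siPML minus siCtrl (left) and WDR4 minus vector (right), from 1 array per group. Bars are 1 technical standard error and dashed lines mark 2-fold. On the left 6 genes lie past the upper line, including SREBF2 and STARD4 below the level filter, and on the right none lies past either line.

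Of the 6 regulators, 5 were higher on siPML than on siCtrl, all but SCAP, against 11350 of all 18255 named genes. SREBF1, SREBF2, INSIG1 and INSIG2 were higher on siPML than on either control array, whereas STARD4 was not. INSIG1, which retains SCAP and is itself an SREBP target, read 2647 in siCtrl, 6062 in siPML, 3696 with vector and 3509 with WDR4. It was 2.29-fold higher on siPML than on siCtrl (1.19), and the further probe differed by 1.15. INSIG2, its paralog, read 10511, 16283, 6386 and 6107 in the same order. Its difference of 0.63 on siPML was smaller, and both overexpression arrays lay below siCtrl. On WDR4 the differences from vector were -0.075 for INSIG1 and -0.065 for INSIG2, within the technical error of 0.08.

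SREBF2, whose promoter carries the SRE shown above, was dim. It read 85.8 in siCtrl, 188 in siPML, 105 with vector and 94.5 with WDR4. The pair of readings behind these values were 80.3 and 91.4 on siCtrl, 171 and 205 on siPML, 102 and 108 on vector, and 94.3 and 94.7 on WDR4. Both siPML readings lay above all others, and the difference of 1.12 had a technical standard error of 0.14. SREBF1 was bright and went mainly with WDR4, reading 9879 in siCtrl, 11438 in siPML, 8081 with vector and 5264 with WDR4. It was 1.54-fold lower on WDR4 than on vector (-0.62), and its dimmer probe differed by -0.58. SCAP, the escort, read 284, 217, 313 and 301, and was lowest on siPML (-0.39).

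STARD4, a sterol transfer protein and SREBP2 target, was the dimmest member and did not order the arrays like the others. It read 33 in siCtrl, 71.4 in siPML, 130 with vector and 115 with WDR4. Its difference on siPML was 1.09 against siCtrl and -0.86 against vector, so its direction depended on the control array. Of the 8 members with readings recovered on both siCtrl and siPML, 5 had both siPML readings above both siCtrl readings, 2 had them below, and 1 overlapped. Among 10572 named genes with such readings, 50.5% lay above and 21.6% below, so the count does not set the members apart. On WDR4 4 of 8 lay below and 4 overlapped, while 24.1% of 10521 genes lay below and 54.2% above.

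**Figure D3:**
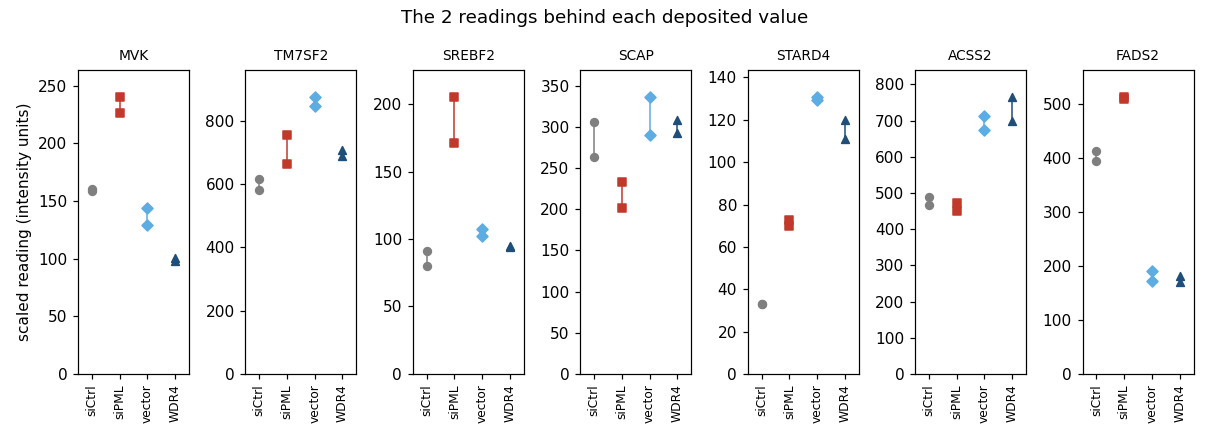
The pair of scaled readings recovered behind each deposited value for the 7 members with readings on all 4 arrays (vertical axes in intensity units, each from 0). The siPML readings of SREBF2, MVK and FADS2 lie above those of siCtrl, and those of SCAP lie below.

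In the fatty acid branch, ACACA was furthest above siCtrl on siPML. ACACA, the acetyl-CoA carboxylase that makes malonyl-CoA, read 2298 in siCtrl, 5079 in siPML, 2100 with vector and 1566 with WDR4. It was 2.21-fold higher on siPML (1.14), and its dim further probe gave 1.13. FASN, the fatty acid synthase, read 1750 in siCtrl, 2816 in siPML, 1087 with vector and 767 with WDR4. ELOVL6, the elongase of palmitate, read 1007, 1930, 813 and 837 in the same order. For ACACA, FASN and ELOVL6, siPML was at least 1.5-fold above both control arrays, and ACACA and FASN were lowest on WDR4.

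The enzymes that supply acetyl-CoA did not share that pattern. ACLY, which splits citrate, read 25176 in siCtrl, 17290 in siPML, 12896 with vector and 14423 with WDR4, so that siCtrl was highest (-0.54 for siPML). Its further probe differed by -0.65. ACSS2, which activates acetate, read 477, 461, 693 and 731, and its 2 probes gave -0.05 and -0.30 on siPML. ACSS2 thus separated the overexpression arrays from the siRNA arrays, in the direction opposite to FDPS and ACAT2.

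SCD, FADS1 and FADS2, the desaturases among the members, were higher on siPML and lower on both overexpression arrays than on siCtrl. SCD, which makes oleate from stearate, read 21986 in siCtrl, 32539 in siPML, 10742 with vector and 12742 with WDR4. FADS1 read 4961, 7395, 4088 and 2723 in the same order, and FADS2 read 403, 511, 181 and 176. These enzymes act on polyunsaturated fatty acids, and their genes are neighbours. FADS1 was lower on WDR4 than on vector by the 1.5-fold threshold (-0.59), whereas FADS2 differed by -0.038 and SCD by 0.25. LPIN1, a phosphatidate phosphatase of glycerolipid synthesis, read 1443 in siCtrl, 2522 in siPML, 2662 with vector and 2190 with WDR4, so that its level on siPML was matched by the vector array. Its further probe differed by 1.40 on siPML.

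Further probes of bright members gave the following values. IDI1 read 2031 in siCtrl, 3135 in siPML, 2131 with vector and 2044 with WDR4 on its further probe, where siPML again stood alone above the others. INSIG2 read 1482, 2380, 816 and 1003 in that order, with siPML highest and the overexpression arrays lowest, as on the brighter probe. SREBF1 read 1317, 1839, 1460 and 979, with siPML highest and WDR4 lowest on both probes. The further ACAT2 probe read 1677, 2037, 1327 and 980, and its WDR4 difference of -0.44 was larger than that of the brighter probe (-0.03).

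On siPML the median log2 difference above the filter was 0.37 for 17 sterol genes, 0.42 for 4 regulators and 0.58 for 9 fatty acid genes. On WDR4 the medians were -0.34, -0.07 and -0.038 in the same order, against -0.043 over all genes above the filter. Below vector on WDR4 were 15 of 17 sterol genes and 5 of 9 fatty acid genes, against 5142 of all 9128 genes above the filter. The fatty acid count was thus near the background. The contrast between these branches depended on the setting. Above the upper quartile of level the medians were -0.34 for sterol and -0.35 for fatty acid genes, against the mean of both controls -0.27 and -0.32, and against siCtrl -0.19 and -0.79. Further probes shared the direction of the brightest probe in 11 of 13 cases on siPML but in 7 of 13 on WDR4. For SC5D, INSIG2, ACLY and ACSS2 the choice of probe turned the direction on WDR4, and for LSS and INSIG1 the further probe lay at 0.03 and 0.002.

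**Figure D4:**
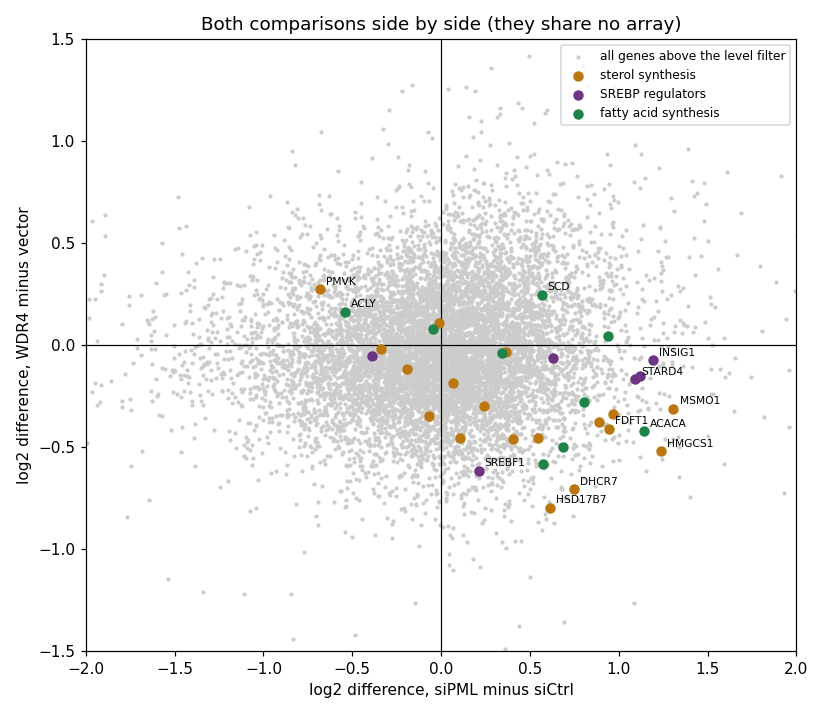
Log2 difference on siPML (horizontal) against that on WDR4 (vertical), each from its own control, for 33 members in colour and 9128 genes above the filter in grey. Of the members, 23 lie in the lower right quadrant; 61 genes fall outside the axes.

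Since these comparisons share no array, their directions could be set side by side. Higher on siPML and lower on WDR4 were 20 of the 30 members above the filter, against 27.2% of all genes above it. As 22 of the 30 were higher on siPML and 24 lower on WDR4, a large overlap was bound to follow. Both higher were ELOVL6 and SCD. Both lower were MVD, FDPS, SC5D and SCAP, while PMVK, EBP, ACLY and ACSS2 were lower on siPML and higher on WDR4. The siPML array was the highest of the 4 for 20 of 33 members and the WDR4 array the lowest for 17. Among all genes above the filter those shares were 25.6% and 20.5%, but the 33 members include MVK, SREBF2 and STARD4, which lay below it.

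The control arrays themselves differed for these genes. On vector against siCtrl, 1 of the 30 members above the filter was at least 2-fold higher (HMGCS1), against 9.43% of genes, and 3 were at least 2-fold lower (FDPS, SCD and FADS2), against 3.14%. Without the filter STARD4 was also 2-fold higher, against 9.28% of all named genes. The median difference was 0.01 for sterol genes, -0.08 for regulators and -0.31 for fatty acid genes, against 0.10 over all genes above the filter. At 1.5-fold, 3 were higher against 22.3% and 7 lower against 10.6%. Whether siRNA transfection, overexpression or the culture made the control arrays differ cannot be told apart. Measured from the higher of both control arrays, 9 of 30 members were at least 1.5-fold higher on siPML, against 3.64% of genes. They were FDFT1, SQLE, MSMO1, DHCR7, INSIG1, INSIG2, ACACA, FASN and ELOVL6. Measured from vector alone, 9 of 30 were at least 2-fold higher on siPML, against 3.7%, and measured from siCtrl alone, 3 were at least 2-fold lower on WDR4, against 3.11%. HMGCS1 did not reach 1.5-fold over the higher control, with differences of 1.24 from siCtrl and 0.11 from vector. Measured from the lower of both control arrays, 3 of 30 were at least 1.5-fold lower on WDR4, against 0.405% of genes, namely DHCR7, SREBF1 and FADS1.

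**Figure D5:**
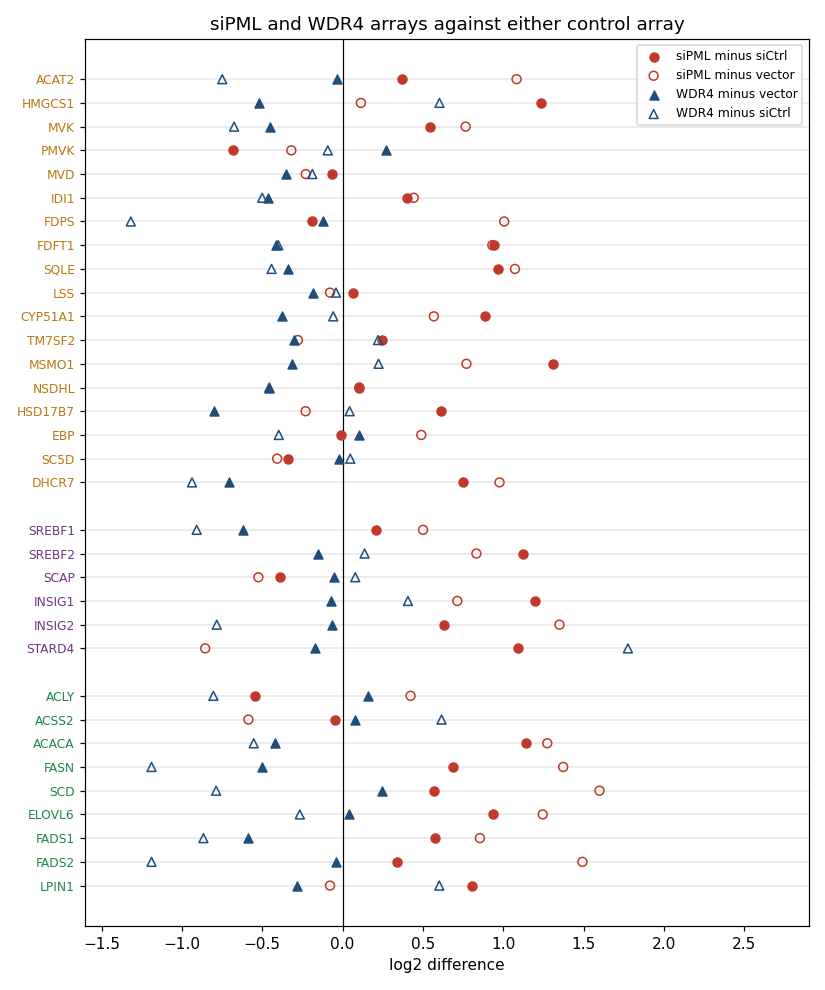
Log2 difference of the siPML array (circles) and the WDR4 array (triangles) from each control array; filled symbols use the control of the design and open symbols the other one. SQLE, FDFT1 and ACACA lie close for both controls, whereas HMGCS1, LPIN1 and STARD4 on siPML move toward or past 0 with the vector array.

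Related genes outside the 33 went both ways on siPML. Of 7 further isoprenoid, sterol and uptake genes above the filter, 1 was at least 1.5-fold higher on siPML than on siCtrl and 1 lower, against 10.1% and 12.9% of all genes above the filter. ERG28, a scaffold of the sterol demethylation complex, read 7639 in siCtrl, 13334 in siPML, 6765 with vector and 5163 with WDR4, which is the order of SQLE. LBR, a sterol reductase and lamin receptor, read 5916 and 3450 on siCtrl and siPML. Of 13 further lipogenic genes, 2 were higher and 4 lower, against the same 10.1% and 12.9%. The higher ones were HSD17B12, which acts in elongation (0.97), and PANK3, a kinase of coenzyme A synthesis (0.72). The lower ones were SCD5 at 930 on siCtrl and 351 on siPML (-1.40), ACSL3 (-0.94), FADS3 (-0.70) and, on its brighter probe, ELOVL5 (-0.60). The probes of ELOVL5 went opposite ways, since the dimmer one read 995 on siCtrl and 1628 on siPML (0.71), so the gene has no settled direction.

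Factors that process SREBPs or degrade sterol-regulated proteins went both ways. Of 7 above the filter, RNF139, a ubiquitin ligase of the endoplasmic reticulum, was higher on siPML (0.68) and ERLIN2 lower (-0.66), against the same background shares. The median was 0.42 on siPML and -0.10 on WDR4, against 0.008 and -0.043 over all genes above the filter. The liver X receptors raise sterol efflux when sterols are plentiful. Among 8 genes of these receptors, 1 was at least 1.5-fold higher and 2 lower on siPML, against 10.1% and 12.9% of all genes above the filter. Their median was -0.39 on siPML and -0.08 on WDR4, against the same 0.008 and -0.043. APOE, a carrier of exported lipid, read 1215 in siCtrl, 639 in siPML, 1957 with vector and 1953 with WDR4. ABCA1, the pump that exports cholesterol, read 1729, 1062, 3203 and 2503. Both were lowest on siPML and higher on both overexpression arrays than on siCtrl. MYLIP, the ligase that degrades lipoprotein receptors and a target of the same receptors, went the other way on siPML, at 541 against 1269 (1.23). None of the 35 genes of these 4 lists above the filter was 1.5-fold different on WDR4 from vector, against 3.09% higher and 3.34% lower over all genes above it, so a count of 0 is near the background.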

How the data were processed

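The deposited table held 1 linear intensity per probe for each of 4 one-colour arrays. Per the labels' protocols, total RNA was amplified and labelled with Cy5. The sources used here do not name the scanner, the software, the background correction or the normalization. Median intensities were 106 to 134, and the number of arrays limits the precision. Of 31741 probes, 24658 had 1 symbol, of which 2177 were updated through RefSeq names. Negative values were raised to 0, and log2 of the value plus 1 was used. A gene took its probe with the highest mean, and 9128 of 18255 genes at or above the median level passed the filter. Between 10 and 1000 units, deposited values resolved into the mean of 2 whole readings, each times a constant of the array, for 93.9% to 100% of values. As a check, each value was moved by a small fixed amount. From 300 to 1000 units, 7.1% of vector and 15.8% of WDR4 values then still resolved, and 0% in the other ranges and on the siRNA arrays. Pairs of readings in that range are thus less certain on the overexpression arrays, and their technical error of 0.08 came from it. The sources used here do not say what a reading was. The standard deviation of their log2 ratio, divided by 2, gave each array's technical error. All 33 members were named, and genes of 4 related lists if above the filter and 1.5-fold or more away from the matching control. Members and lists were chosen with earlier results of these data known. The steps were tested on simulated data. Alternatives were the other control array, the mean of both controls, other scalings, another pseudocount (16), the mean over probes and other filters and thresholds. Python 3.11.15, numpy 2.4.6, pandas 2.3.3 and matplotlib 3.10.9 were used.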

Additional observations from a re-analysis of the deposited data

How the results depend on the processing

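No paired analysis was possible because each group had 1 array and the labels give all of them the same replicate number. Every difference rests on single arrays, so the spread between cultures is unknown, and dim genes are limited by background. On siPML against siCtrl, all 3 branch medians stayed above 0 and on WDR4 against vector all 3 stayed below 0 under every setting run. On WDR4 the median of all genes above the filter was itself -0.043, and -0.122 after median centring. The fatty acid median was -0.038 and -0.117 in these settings, so it was not below that of all genes. With 16 added it was not below it either, and under the other settings, the threshold apart, it lay below. The cause of each shift below was not tested, except that a lower threshold counts more genes and another filter changes which genes enter. Of 33 members, 31 kept their sign on siPML and 27 on WDR4 over the 4 settings that kept the own control and could turn a single gene (quantile normalization, centring, mean over probes, trend removal). With vector as control, 9 members were at least 2-fold higher on siPML, the regulator median was 0.61 and the fatty acid median 1.25, and 8 members changed sign, namely STARD4 (to -0.86), FDPS (-0.19 to 1.01), ACLY (-0.54 to 0.42), HSD17B7 (0.61 to -0.23), LPIN1, TM7SF2, LSS and EBP. With siCtrl as control, 3 members were at least 2-fold lower on WDR4, with medians of -0.19 for sterol genes, -0.35 for regulators and -0.79 for fatty acid genes, and 15 members changed sign, among them HMGCS1 (-0.52 to 0.60), SCD (0.25 to -0.79), ACLY (0.16 to -0.80) and STARD4 (-0.17 to 1.78). With the mean of both controls, the regulator and fatty acid medians were 0.66 and 0.92 on siPML and -0.21 and -0.32 on WDR4. At 1.5-fold the counts were 13 higher and 1 lower on siPML, 4 lower on WDR4, and 3 higher and 7 lower on vector. Without the filter the regulator median on siPML was 0.86, and above the upper quartile it was 0.63. The fatty acid median on WDR4, -0.038 as reported, was -0.16 after quantile normalization, -0.12 after median centring, -0.16 with the mean over probes, -0.35 above the upper quartile and -0.12 without the level trend. On WDR4 median centring gave -0.42 for sterol genes and -0.15 for regulators, and removal of the trend gave -0.25 for sterol genes. Median centring moved the median of all genes by -0.10 on siPML and -0.08 on WDR4. On vector against siCtrl it moved it by -0.25, and quantile normalization by -0.13. There the sterol median turned to -0.077 after quantile normalization, -0.24 after centring, -0.039 above the upper quartile and -0.051 without the trend. The regulator median was -0.18, -0.33 and -0.29 under the first 3 of these, and it turned to 0.032 with the mean over probes and 0.21 without the filter. The fatty acid median was -0.51, -0.56, -0.48 and -0.52 under the same 4 settings. The count at least 2-fold higher on vector was 0 after quantile normalization or centring, and 2 with the mean over probes or without the filter.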

Other observations

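A probe annotated to both HSD17B7 and its copy HSD17B7P2 entered no comparison. It read 989 in siCtrl, 1840 in siPML, 1943 with vector and 1157 with WDR4. Its differences were 0.90 on siPML against siCtrl, -0.75 on WDR4 against vector and 0.97 on vector against siCtrl. The probe with the single symbol HSD17B7 gave 0.61, -0.80 and 0.84 for the same differences. The order of the arrays was the same for both probes, with vector highest and siCtrl lowest. The probe annotated to both cannot tell the gene from its copy, and whether the single-symbol probe can was not examined.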
